A study of Rattus norvegicus with 8 samples.

Results

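The genes described here build and power the skeletal muscle sarcomere: Ttn, Neb, Ckm, Acta1 and the myosin heavy chains Myh1, Myh2, Myh4, Myh7, Myh3 and Myh8. They were chosen by symbol, and 9 of the 10 had a row among the 30560 genes of the deposited table. Myh1 had no row by symbol and is not analysed further. The data were single-nucleus RNA profiles of nodose ganglia, which hold the cell bodies of vagal sensory neurons, from untreated Long Evans rats aged 8 weeks, 18 of each sex. Each of 12 pools combined the ganglia of 1 side from 6 rats, with 3 pools for every combination of sex and side. Pools are written by label, so that ML1 is male, left, replicate 1 and FR3 is female, right, replicate 3. No genotype other than the strain and no treatment is given, and the design asks how sides and sexes differ.

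Titin, encoded by Ttn, spans from the Z-disc to the M-band as an elastic filament, nebulin (Neb) runs along the thin filament, skeletal alpha-actin (Acta1) forms it, and muscle creatine kinase (Ckm) regenerates ATP beside it. The myosin heavy chain is the motor, and the isoform that a fibre makes defines its type: Myh7 marks slow type 1 fibres, Myh2 fast oxidative type 2A fibres, Myh1 type 2X fibres and Myh4 fast glycolytic type 2B fibres, while Myh3 and Myh8 are the embryonic and perinatal isoforms. A muscle fibre holds many nuclei in a common cytoplasm, and neither neurons nor ganglion glia build sarcomeres.

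Of 36741 nuclei, 1009 (2.75%) held Ttn plus Neb at 10 or more transcript counts (unique molecular identifiers, UMIs). That limit is the rule by which muscle nuclei are described, so the Ttn and Neb levels of these nuclei are given as descriptions, with no test. Clustering on other genes, with all members left out, placed 423 of the 1009 in a cluster of 434 nuclei whose leading genes were Tnnt3, AABR07005775.1, Xirp2, H19, Cmya5, Trdn, Ca3, Mb, Myl1 and Ryr1. All 12 skeletal muscle markers of the list that have a row were higher there, and these 423 are called muscle-like nuclei. The other 586 nuclei past the limit lay in other clusters, 390 of them in neuron-like clusters. The 35732 nuclei under the limit are called the remaining nuclei.

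The 12 pools held 1738 to 4849 nuclei and 7140286 to 19456287 UMIs each, in 4 wells of the first barcoding round, and the median nucleus had 2680 UMIs. All pools were spread over 8 sublibraries, in which 2.48 to 3.16% of nuclei passed the limit. A barcode combination found in more than 1 sublibrary was carried by 3808 nuclei (10.4%). The pools ML1 and FL1 went against their sex labels: Y-linked genes summed to 2.13 CPM (UMIs scaled to 1000000 UMIs) in ML1 and 87.9 CPM in FL1, against 83.4 to 90.7 in the other male-labelled and 1.51 to 3.12 in the other female-labelled pools. Sex is therefore written as labelled, and the comparisons of side and sex, other than that of the muscle-like nuclei alone, were repeated without both pools. With 6 rats in each of 3 pools per sex and side, the left and right pools of a sex draw on the same 18 rats. The labels do not say which pools share rats, the tests treat the pools as independent, and p-values measure only the spread between pools.

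Promoter sequences are shown for the thin filament gene, the kinase and the fast myosins whose levels are compared below, since their UMIs appeared in the same nuclei. RefSeq (rat build GRCr8, another build than the mRatBN7.2 of the submitters' processing notes) held promoters for 10 of 10 members. The 150 bases before each transcription start are printed 5′ to 3′ on the gene's strand, and capitals mark any CANNTG (the E-box bound by MyoD-family factors) and TATAAA (the TATA box).
Ckm (chr1:88189311-88189460, plus strand): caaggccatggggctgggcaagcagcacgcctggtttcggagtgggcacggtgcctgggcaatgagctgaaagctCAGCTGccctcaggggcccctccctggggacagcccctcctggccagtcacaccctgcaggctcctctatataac
Acta1 (chr19:68784195-68784344, minus strand): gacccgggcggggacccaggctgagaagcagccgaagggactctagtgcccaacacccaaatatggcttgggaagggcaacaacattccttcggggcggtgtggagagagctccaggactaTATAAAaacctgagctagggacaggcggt
Myh2 (chr10:52355589-52355738, plus strand): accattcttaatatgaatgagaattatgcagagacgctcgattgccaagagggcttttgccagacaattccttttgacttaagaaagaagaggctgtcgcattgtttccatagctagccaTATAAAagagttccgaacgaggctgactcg
Myh4 (chr10:52421998-52422147, plus strand): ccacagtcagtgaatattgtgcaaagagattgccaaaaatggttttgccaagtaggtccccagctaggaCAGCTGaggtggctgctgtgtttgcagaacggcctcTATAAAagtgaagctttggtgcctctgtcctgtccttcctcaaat

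In the 250 bases before the start, on either strand, CANNTG occurred for 7 of the 10 members, against 65.6% of 33465 RefSeq promoters. Its form CAGCTG, a subset of CANNTG, occurred for 4 members (Ckm, Acta1, Myh4 and Myh7), against 11.97% of promoters, and TATAAA for 5, against 12.9%. The CArG box, bound by serum response factor, occurred for Acta1 and Myh4, against 1.497% of promoters, and the MEF2 site for Ttn, Myh1 and Myh4, against 2.96%. Myh2 had no CANNTG in this window, whereas Myh4 had 2 matches. In the RefSeq gene order, Myh2, Myh1, Myh4 and Myh8 follow each other on chromosome 10 with 1 other locus among them, and Myh3 lies before Myh2. Over the aligned upstream windows Myh1 and Myh2 were 67.8% identical, and Myh2 and Myh4 55.3%. These myosins are close paralogs, and how the authors' counting assigned shared reads is not given, so counts of Myh2 and Myh4 are uncertain to that extent.

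In the muscle-like nuclei, Ttn, Neb and Myh4 were found in nearly every nucleus and the other fibre-type myosins with a row in a minority. Ttn had at least 1 UMI in all 423 nuclei, Neb in 97.4% of them and Myh4 in 96.9%. Acta1 was detected in 61.2% and Ckm in 56.3%. Myh2 was detected in 24.1% of the nuclei, Myh7 in 8 nuclei and Myh3 in 3, with 1 UMI each. Myh8 had 0 UMIs in the muscle-like nuclei, which allows up to 3.03 CPM, and 3 UMIs in all other nuclei. These nuclei were shallower than the rest, with a median of 1618 UMIs against 2679.5 in the remaining nuclei. Thinned to 1000 UMIs per nucleus, with 51 of the 423 left out as shallower, Myh4 was detected in 89.0% of muscle-like nuclei and 3.797% of remaining nuclei, against 9.33% of remaining nuclei before thinning.

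Levels were summed by pool for the 5 pools with at least 10 muscle-like nuclei: ML3 with 10, FL1 with 33, MR1 with 47, MR2 with 12 and FR2 with 309. Myh4, the type 2B motor, stood at 22922 CPM in ML3, 9784 in FL1, 9329 in MR1, 7315 in MR2 and 7345 in FR2 (mean 11339 ± 6572 CPM, SD, n = 5 pools). Acta1 stood at 4048 CPM in ML3, 1623 in FL1, 1019 in MR1, 1094 in MR2 and 627 in FR2 (1682 ± 1370). Ckm stood at 1735 CPM in ML3, 913 in FL1, 526.2 in MR1, 991 in MR2 and 596 in FR2 (952 ± 481). ML3 was the highest pool for each of these genes and rests on the fewest nuclei, and FR2, which held most of the nuclei, was the lowest for Acta1 and next to the lowest for Myh4 and Ckm. Ttn, which the rule used, stood at 36452 ± 20554 CPM (lowest pool 23803, highest 72919) and Neb at 6618 ± 3534 (4512 to 12881). For each of Ttn, Neb, Ckm, Acta1 and Myh4 the lowest of the 5 muscle-like pool sums lay above the highest of the 12 sums of remaining nuclei. The highest remaining sum was 136 CPM for Myh4, 13.2 for Acta1 and 12.3 for Ckm, all of them in FR2.

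**Figure D1:**
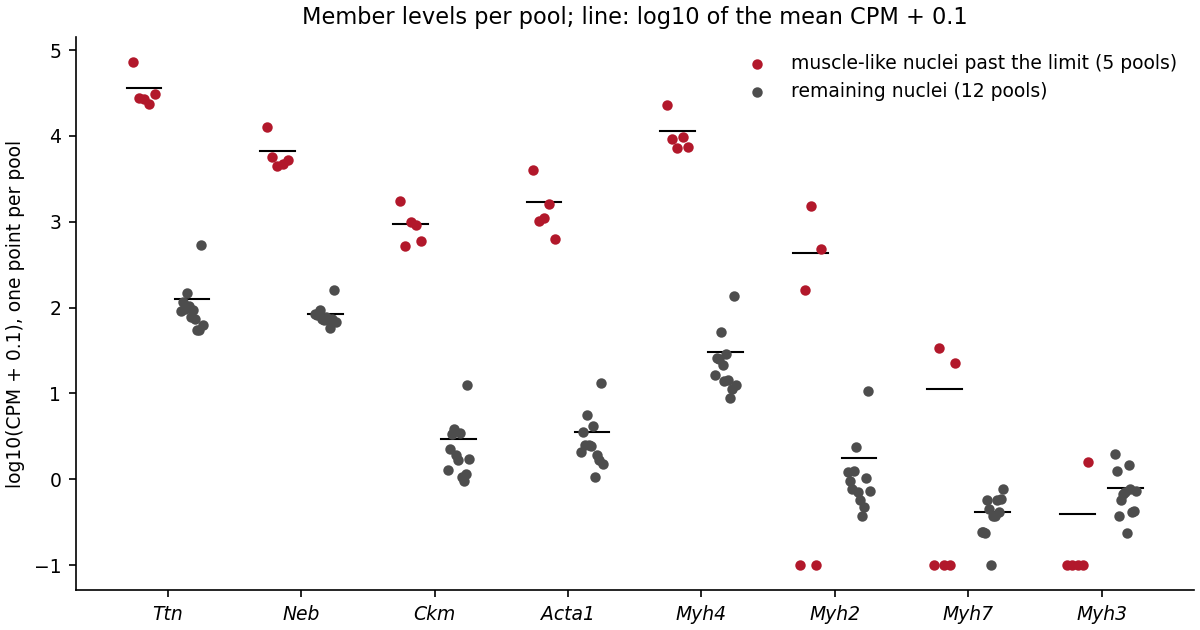
Level of each gene in every pool, as log10 of CPM plus 0.1, in muscle-like nuclei past the limit (red, 5 pools with at least 10 such nuclei) and in remaining nuclei (grey, 12 pools), with a line at the mean. Red and grey points are apart for Ttn, Neb, Ckm, Acta1 and Myh4, Myh2 and Myh7 have red points at 0 in some pools, and Myh3 is not higher in the muscle-like nuclei. Genes are not corrected for length, so heights compare pools and nuclei of 1 gene and not genes with each other.

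Of the adult fibre-type myosins with a row, Myh4 was the main one in the muscle-like nuclei. Myh1, the type 2X isoform, has no row by symbol, so type 2X fibres could not be seen. FR2 gave 309 of the 423 nuclei. Myh4 was the only one of Myh4, Myh2 and Myh7 detected in 314 of the 423 nuclei, Myh4 came with Myh2 in 88, and Myh2 came alone in 6. A further 8 nuclei held both Myh2 and Myh7, and 7 held none of these myosins. Every nucleus with a Myh7 UMI, 8 of 8, also held Myh2, which was present in 102 nuclei and absent from 321. Of all UMIs of these 3 myosins, 95.1% were Myh4 and 4.62% Myh2. Myh2 outnumbered Myh4 in 22 nuclei, and Myh7 led in 1.

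Myh2 was spread unevenly over the pools. It was found in 92 of 309 muscle-like nuclei of FR2, in 4 of 12 of MR2 and in 4 of 47 of MR1, where 1 nucleus held 14 of the 19 UMIs. It was found in 0 of 33 muscle-like nuclei of FL1 and 0 of 10 of ML3. As levels, Myh2 stood at 1538 CPM in MR2, 480 in FR2 and 159 in MR1, and at 0 in FL1 and ML3. The measured Myh2 levels were 20.5 times in FR2 and 65.7 times in MR2 the limit that 0 counts allow in FL1, 3 counts or 23.4 CPM. These ratios leave out the counting error of FR2 and MR2. The 95% exact intervals were 428.8 to 535.0 CPM in FR2, 1122 to 2058 in MR2 and up to 28.8 in FL1. The MR2 level came from 45 UMIs in 4 nuclei. Over all pools, left muscle-like nuclei held 1 Myh2 UMI in 52 nuclei and 162856 UMIs (6.14 CPM), and right ones 397 in 371 nuclei and 826813 UMIs (480 CPM), a ratio of 78.2 (95% exact interval 13.95 to 3096, counting error only). The nuclei of a pool are not replicates of a side, and the interval says nothing of the spread between pools.

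The other genes of fast and slow fibres came from lists. In the muscle-like nuclei all 7 fast-fibre genes with a row were over 2-fold above the remaining nuclei and higher in 5 of 5 pools, led by Tnnt3 (fast troponin T, 1728 CPM), Myl1 (fast myosin light chain, 441 CPM) and Mybpc2 (fast myosin-binding protein C, 360 CPM). Of 8 slow-fibre genes, 6 were over 2-fold above the remaining nuclei, but 1 was higher in every pool, Mybpc1 (679 CPM against 21.0). Atp2a2, the slow and cardiac calcium pump, which other cells also express, stood at 176 CPM against 216 in the remaining nuclei, and Tnnt1, slow troponin T, at 19.2 against 0.229. Of 17 genes of the shared sarcomere and triad, 17 were higher in 5 of 5 pools and 16 were over 2-fold higher. Dmd (dystrophin, 1577 CPM), Xirp2 (1275) and Trdn (triadin, 943) had the highest counts, and Dmd was the 1 gene under 2-fold. Of 4 end plate and tendon-end genes 2 were over 2-fold above the remaining nuclei, at low levels: Musk (8.08 CPM, 8 UMIs) and Chrna1 (1.01 CPM, 1 UMI). Col22a1 was not (13.1 against 7.73 CPM). Of 5 satellite cell genes 3 were over 2-fold, among them Pax7 (4.04 CPM, 4 UMIs) and Myod1 (2.02 CPM, 2 UMIs). Megf10 was not (53.6 against 56.1 CPM). In neither list was a gene higher in every pool. Of 5 smooth muscle genes 0 were over 2-fold above the remaining nuclei (Myh11 46.5, Acta2 12.1 and Myocd 10.1 CPM). Cardiac genes were at or under 4.04 CPM, with 2 of 5 over 2-fold. The other striated myosins did not reach 2-fold (Myh14 60.6, Myh7b 19.2 and Myh6 4.04 CPM). This cluster was drawn from all genes outside the member list, so these levels describe it and test nothing.

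Nuclei led by Myh2 were also set beside those led by Myh4 in partner genes, a contrast that was looked at after the values were seen and is given without a test. The Myh2-led class of 22 nuclei (44866 UMIs; 16 nuclei in FR2, 4 in MR2 and 1 each in MR1 and FR3) was set beside 389 Myh4-led nuclei (921793 UMIs). Both classes are cut from a count: 9 nuclei had Myh2 ahead by 1 UMI, 10 had Myh4 ahead by 1, and 11 were equal, 4 of them with a UMI of either. Tnnt1 stood at 290 CPM (95% exact Poisson interval 154 to 496) in Myh2-led nuclei and 6.51 (2.39 to 14.2) in Myh4-led nuclei, and all 13 of its UMIs in the Myh2-led nuclei came from FR2. Casq2, the slow and cardiac calsequestrin, stood at 134 CPM (49.1 to 291) against 10.85 (5.20 to 19.95). Actn3, the fast-fibre alpha-actinin, had 0 UMIs in Myh2-led nuclei, which allows 66.9 CPM, against 230 CPM in Myh4-led nuclei, and the fast calsequestrin Casq1 had 0 against 137 CPM. Within FR2, which gave 16 of the 22 Myh2-led nuclei, the Myh4-led nuclei had Actn3 at 57.0 and Casq1 at 52.25 CPM, under the 128.7 CPM that 0 counts allow in the Myh2-led ones, so that no difference was detectable there. In the pools other than FR2 the Myh4-led nuclei had 606.5 CPM of Actn3 and 320.5 of Casq1, and the 6 Myh2-led nuclei had 0 UMIs of either, which allows 139.1 CPM. Of these 6, 4 came from MR2, where all muscle-like nuclei together had 170.9 CPM of Actn3 and 102.5 of Casq1. Class and pool cannot be told apart there. Tnnt3 stood in the same classes at 1739 CPM (1374 to 2170) and 1755 (1671 to 1843).

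Partner genes, likewise picked after their values were seen, also differed by pool. Actn3 stood at 1420 CPM in ML3, 523 in FL1, 518 in MR1, 171 in MR2 and 53.5 in FR2. Casq1 stood at 736 CPM in ML3, 281 in FL1, 276 in MR1, 103 in MR2 and 49.0 in FR2. Myoglobin (Mb), the oxygen store of oxidative fibres, ran the other way, at 52.6 CPM in ML3, 46.8 in FL1, 66.8 in MR1, 274 in MR2 and 558 in FR2. MR2 and FR2, the pools with the most Myh2, had the least Actn3 and Casq1 and the most Mb of the 5. The fast-fibre genes did not all follow. Mybpc2 and Myl1 were also lowest in these pools, and Tnnc2 was lowest in MR2. Tnnt3, Tnni2 and Mylpf stood higher in MR2 than in every pool but ML3 (2153.5, 444.4 and 444.4 CPM). The MR2 values rest on 5 Actn3, 3 Casq1 and 8 Mb UMIs. Of that pool's 29255 UMIs in muscle-like nuclei, 17953 came from 4 Myh2-led nuclei. Within FR2 alone, Mb was at 472 CPM in Myh2-led and 565 CPM in Myh4-led nuclei, with overlapping intervals (236 to 845 and 508 to 627).

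**Figure D2:**
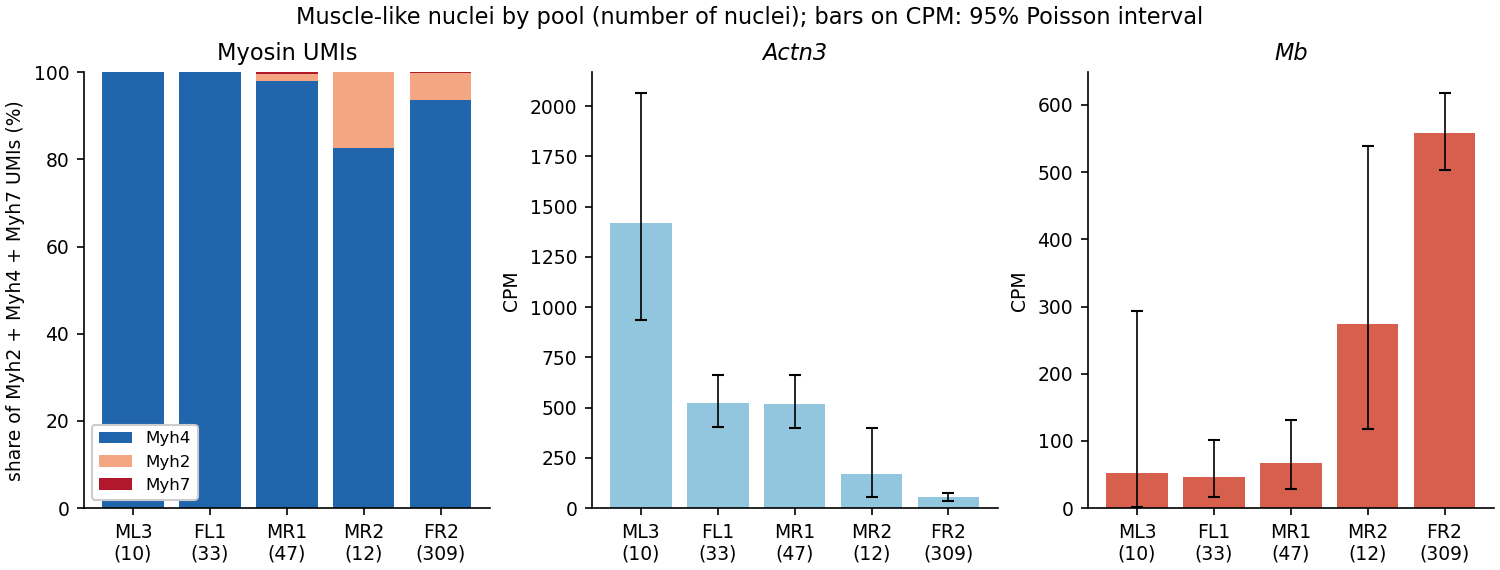
Muscle-like nuclei of the 5 pools with at least 10 of them (number of nuclei in brackets): share of Myh4, Myh2 and Myh7 in their summed UMIs (left), and Actn3 (middle) and Mb (right) in CPM with 95% exact Poisson intervals. ML3 and FL1 hold no Myh2, and MR2 and FR2 hold the most Myh2 and Mb and the least Actn3.

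The share of nuclei past the limit differed widely between pools, from 0.0454% in FL3 to 14.7% in FR2. Among left pools it was 0.608% in ML1, 0.984% in ML2, 0.887% in ML3, 2.86% in FL1, 0.575% in FL2 and 0.0454% in FL3. Among right pools it was 4.41% in MR1, 0.758% in MR2, 0.150% in MR3, 0.0915% in FR1, 14.7% in FR2 and 0.103% in FR3. FR2 held 669 of the 1009 nuclei, and its 4 wells gave 11.8 to 16.6%. The sides averaged 0.993 ± 0.972% (left) and 3.37 ± 5.79% (right; SD, n = 6 pools each), and overlapped (difference 2.37 points, two-sided exact permutation p = 0.51, adjusted over both comparisons 0.70; the smallest possible p is 0.005). Male-labelled pools averaged 1.30 ± 1.55% and female-labelled pools 3.06 ± 5.79% (difference 1.76 points, two-sided exact permutation p = 0.70, adjusted 0.70). Without FR2 the side difference was 0.110 points and the sex difference -0.565 points. Without ML1 and FL1 they were 2.74 and 1.66 points.

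**Figure D3:**
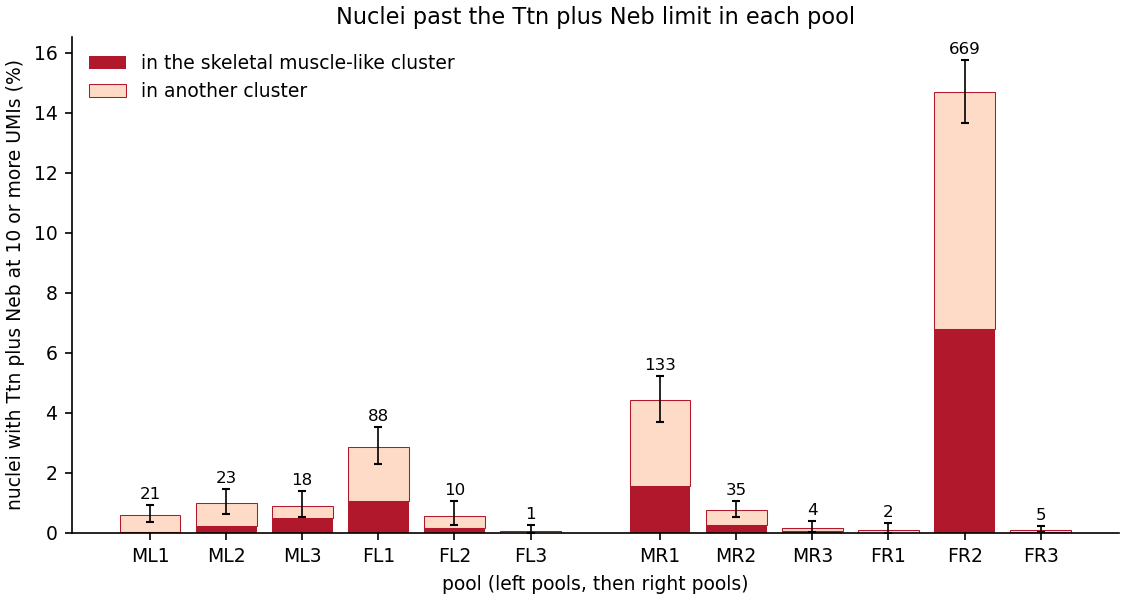
Percent of each pool's nuclei with Ttn plus Neb at 10 or more UMIs, left pools then right pools, stacked as nuclei of the skeletal muscle-like cluster (dark) and of other clusters (light), with 95% exact binomial intervals and the number of nuclei above each bar. FR2 stands at 14.7%, MR1 at 4.41% and FL1 at 2.86%, and the other 9 pools are under 1%.

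Nuclei on either side of the limit were much alike. At 9 UMIs of Ttn plus Neb there were 71 nuclei, 4 of them muscle-like, with Myh4 at 301 CPM, and at 10 UMIs there were 88, also with 4 muscle-like, and Myh4 at 262 CPM. Of the classes, 97.5% of the muscle-like cluster passed, against 1.46% of 26708 neuron-like nuclei, 4.22% of myelinating Schwann-like nuclei and 4.27% of endothelial-like nuclei. Nuclei past the limit outside the muscle-like cluster were deeper, with a median of 4074.5 UMIs, and Ttn and Neb made up a median of 0.472% of their UMIs, against 2.93% in muscle-like nuclei. Neuron markers, 13 genes, summed to 7971 CPM in muscle-like nuclei (6204 to 11843 over the 5 pools, none of the 13 at 0) and to 11588 CPM in neuron-like remaining nuclei. Whether doublets or free RNA contribute to either group was not tested.

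In sums over all nuclei of a pool, no member passed a test of side or sex. Such sums cannot tell more muscle nuclei from more RNA per nucleus. Ttn ranged from 57.4 to 372 CPM (median 156.5) over left pools and from 62.6 to 2274 (median 140) over right pools, and the ranges overlapped. Myh2 ranged from 0.376 to 1.26 CPM over left pools and from 0.610 to 37.0 over right pools, also overlapping. In edgeR's quasi-likelihood test with Benjamini-Hochberg adjustment, 6 of 14883 genes (0.0403%) passed for side and 0 of the 7 members with enough counts, Myh7 and Myh8 being too low. The log2 difference, right over left, was 3.28 ± 0.98 (SE) for Myh2 (adjusted p = 0.527), 1.28 ± 0.80 for Ttn (0.766) and 1.19 ± 0.87 for Myh4 (0.804). The members' median was 1.07 and that of all genes tested 0.00. For sex 0 of 14883 genes (0.00%) and 0 of 7 members passed, with 1791 genes and no member at an unadjusted p under 0.05 and 75 genes called by DESeq2. Female-labelled over male-labelled, the log2 difference was 0.70 ± 0.79 for Ttn (edgeR adjusted p = 0.759), 0.74 ± 0.86 for Myh4 (0.766) and 1.21 ± 0.88 for Myh2 (0.611). Without FR2 the differences of Ttn and Myh4 turned to -0.33 and -0.41 for side, and those of Ttn, Myh4 and Myh2 to -0.92, -0.89 and -1.49 for sex. Without ML1 and FL1, the sex difference was 0.42 for Ttn, 0.20 for Myh4 and 1.45 for Myh2.

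Levels by side were tested in the nuclei past the limit, in the 8 pools with at least 10 such nuclei (5 left, 3 right). Without a row for Myh1, these levels cover only part of the fibre types. Myh2 stood at 3.47 CPM in ML1, 30.5 in ML2, 0 in ML3, 3.42 in FL1 and 64.1 in FL2 on the left, and at 50.2 in MR1, 414 in MR2 and 166 in FR2 on the right. The sides overlapped, since FL2 lay above MR1. Of 6812 genes 7 passed (0.103%), and 1 of the 6 members tested was among them: Myh2 was higher on the right by 4.17 ± 0.74 on the log2 scale (edgeR, Benjamini-Hochberg adjusted p = 0.027). Myh4 differed by -0.12 ± 0.55, Acta1 by -0.61 ± 0.58 and Ckm by -0.00 ± 0.53 (edgeR adjusted p = 0.9999 for each). Mb, from the shared sarcomere list, was also higher on the right, by 3.26 ± 0.51 (edgeR adjusted p = 0.016), and no other gene of the lists passed. FR2 is the only female right pool, so the low-count filter could be met by 1 pool. Mb met it only in the right pools MR2 (60.9 CPM) and FR2 (193), with at most 32.0 CPM on the left. Its p-value is therefore no support for a side difference. Mb also overlapped, at 19.3 CPM in MR1 against 30.8 in ML3 and 32.0 in FL2, and its call ended without MR2 (edgeR adjusted p = 0.0594), without FL1 (0.413) or without both ML1 and FL1 (0.695). Without FR2, Mb was too low to be tested, and 0 of 4412 genes passed edgeR's test, with 126 at an unadjusted p under 0.05. The share of myelinating Schwann-like nuclei among those past the limit was 0 to 5.56% in the left pools and 5.71 to 6.13% in the right ones. These shares rest on 0 to 2 such nuclei per left pool, and on 8 in MR1, 2 in MR2 and 41 in FR2. The nearest values, of ML3 and MR2, are 1 of 18 and 2 of 35 nuclei. Of the other genes that passed, Adarb2, Agbl1 and Prkcq were higher on the right and Edil3 lower, named after their values were seen. The share of muscle-like nuclei in these sums ran from 4.76% (ML1) to 55.6% (ML3), and its part in the differences was not tested.

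The Myh2 call ended under DESeq2 (adjusted p = 0.543) and without ML1 (edgeR adjusted p = 0.146), MR2 (0.0696), FL1 (0.242) or FR2 (0.9998). Without both ML1 and FL1, the log2 difference of Myh2 fell to 2.56 ± 0.89 (edgeR adjusted p = 0.586) and that of Mb to 1.72 ± 0.68. Over the 8 fits that each left out 1 pool, the adjusted p ran from 0.00192 to 0.9998, while the log2 difference stayed between 3.44 and 4.83.

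The muscle-like nuclei alone gave a side comparison of 5 pools (2 left, 3 right), added after the data were seen. In edgeR's test 18 of 4229 genes passed (0.426%), and 2 of the 6 members tested were among them. Acta1 levels were 4048 and 1623 CPM on the left and 1019, 1094 and 627 on the right. Acta1 differed by -1.62 ± 0.31 on the log2 scale, right over left (edgeR, Benjamini-Hochberg adjusted p = 0.000118). This call was absent in the 8 pools of all nuclei past the limit (adjusted p = 0.9999). Myh2 was also among those called (edgeR adjusted p = 8.8e-14), but both left pools are at 0. The low-count filter could be met by 1 pool, and Myh2 met it through right pools alone. Its call is therefore no support for a side difference, and its fitted size is no bound. Myh4 differed by -0.95 ± 0.32 and Ckm by -0.89 ± 0.33, which did not pass (edgeR adjusted p = 0.243 and 0.374). Only ML3, with 10 nuclei, and FL1, which goes against its sex label, stand for the left side. With the labelled sex in the model, the fit left fewer than the 3 residual degrees of freedom that the plan required. No pool was left out in turn. Its p-values therefore cannot decide whether the sides differ.

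As a share of Myh4, Myh2 and Myh7 UMIs past the limit, Myh4 made up 98.1% in ML1, 95.7% in ML2, all of them in ML3, 99.9% in FL1 and 96.5% in FL2, and 98.1% in MR1, 77.6% in MR2 and 93.6% in FR2. MR2 and FR2 were the lowest pools, and MR1 lay among the left pools. Myh1 has no row and is missing from these shares, so type 2X fibres do not show in them. The mean was 98.0 ± 1.95% on the left (n = 5) and 89.8 ± 10.8% on the right (n = 3), a difference of -8.26 points that did not pass (two-sided exact permutation p = 0.0714, 56 relabellings, smallest possible p 0.0179). Without MR2 the difference was -2.18 points (exact permutation p = 0.429), without MR1 -12.45 (0.0476) and without ML1 and FL1 -7.63 (0.30). It was -8.61 points with a limit of 20 UMIs (exact permutation p = 0.0357), -7.39 in the muscle-like cluster alone (0.0857) and -6.68 as the mean of per-nucleus shares (0.536).

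Outside the nuclei past the limit, Ttn, Neb, Myh4, Acta1, Ckm and Myh2 were present at low counts in all classes, while Myh7, Myh3 and Myh8 were at 0 in endothelial-like and mural-like nuclei. In every class except myelinating Schwann-like and unnamed nuclei, FR2 was the highest pool for both Ttn and Neb. The remaining nuclei held 29.8% of all Ttn UMIs, 28.3% of Myh4, 29.1% of Acta1, 31.1% of Ckm and 31.1% of Myh2, but 60.4% of Neb. Ttn in the remaining nuclei was 530.5 CPM in FR2 and 54.6 to 150 in the other 11 pools, Myh4 136 against 8.76 to 52.0 and Neb 159 against 57.7 to 93.4. Summed over the members, neuron-like nuclei under the limit held 183 CPM in ML1, 220 in ML2, 189 in ML3, 187 in FL1, 151 in FL2 and 117 in FL3, and 261 in MR1, 182 in MR2, 151 in MR3, 124 in FR1, 707 in FR2 and 134 in FR3. Over the 12 pools this sum and the share of nuclei past the limit had Pearson r = 0.983 and Spearman rho = 0.972, given as a description, since Ttn and Neb enter both measures. Without FR2 and MR1, the pools farthest from the median share, r was 0.606 and rho 0.952, and without FR2 alone r was 0.811. The members other than Ttn and Neb, a sum chosen after the data were seen, stood at 140.0 CPM in the neuron-like nuclei of FR2, 55.15 in MR1 and 34.7 in FL1, and at 12.4 to 32.6 in the other 9 pools. This sum also rose with the share (Pearson r = 0.993 and Spearman rho = 0.993). These values too are a description, since the sum was picked afterwards and the share rests on Ttn and Neb. Without FR2 and MR1 r was 0.816 and rho 0.988. Whether free RNA accounts for these counts was not tested.

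The side and sex tests on remaining nuclei called no member. For side 9 of 14832 genes (0.0607%) and for sex 2 (0.0135%) passed edgeR's test, and 0 of 7 members in either. Right over left, Ttn differed by 0.81 ± 0.47 and Myh4 by 0.98 ± 0.56 on the log2 scale (edgeR adjusted p = 0.753 and 0.751), and without FR2 by -0.08 and -0.02.

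Among the members abundant in muscle-like nuclei, Neb was the one with most of its UMIs in the remaining nuclei. (Myh7, Myh3 and Myh8, with 75, 99 and 3 UMIs in all, also had most of theirs there.) There were 0.175 Neb UMIs per Ttn UMI in muscle-like nuclei (0.0762 to 0.209 over 10 pools), 0.202 in the others past the limit and 0.653 in the remaining nuclei (0.300 to 1.36 over 12 pools). Myh4, Acta1 and Ckm kept nearer to Ttn: Myh4 per Ttn was 0.270 in muscle-like and 0.243 in remaining nuclei, Acta1 per Ttn 0.0294 and 0.0272, and Ckm per Ttn 0.0219 and 0.0227. In myelinating Schwann-like nuclei under the limit Neb stood at 303 ± 40.5 CPM (240.5 to 377, n = 12 pools), while Ttn ranged from 19.2 to 1026 CPM (197 ± 268). In neuron-like nuclei Neb stood at 65.3 ± 19.2 CPM and in satellite glia-like nuclei at 110 ± 27.4. The lowest pool of the myelinating Schwann-like nuclei was above the highest pool of either, 122 and 187 CPM. FR2, with 1026 CPM of Ttn in these nuclei, had 344 CPM of Neb, within the range of the other pools.

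The high Neb level was also present in pools with few muscle nuclei. In the 4 pools with at most 5 nuclei past the limit (MR3, FL3, FR1 and FR3), Neb was at 296.5 CPM in 330 myelinating Schwann-like nuclei, with Ttn at 83.7 and Myh4 at 18.1, and at 52.6 CPM in neuron-like nuclei, with Ttn at 62.75 and Myh4 at 10.8. Thinned to 1000 UMIs, Neb was detected in 22.7% of myelinating Schwann-like and 6.03% of neuron-like nuclei (before thinning 44.1 and 19.6%, with median depths of 2017 and 3011.5 UMIs). An unnamed cluster led by Grin2b, Adarb2 and Prkcq had Neb at 543 CPM against 78.8 in all other remaining nuclei, and was higher in 12 of 12 pools. The pattern was noticed in these values, and the limit on Ttn plus Neb caps Neb in every remaining nucleus, so no test is given.

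**Figure D4:**
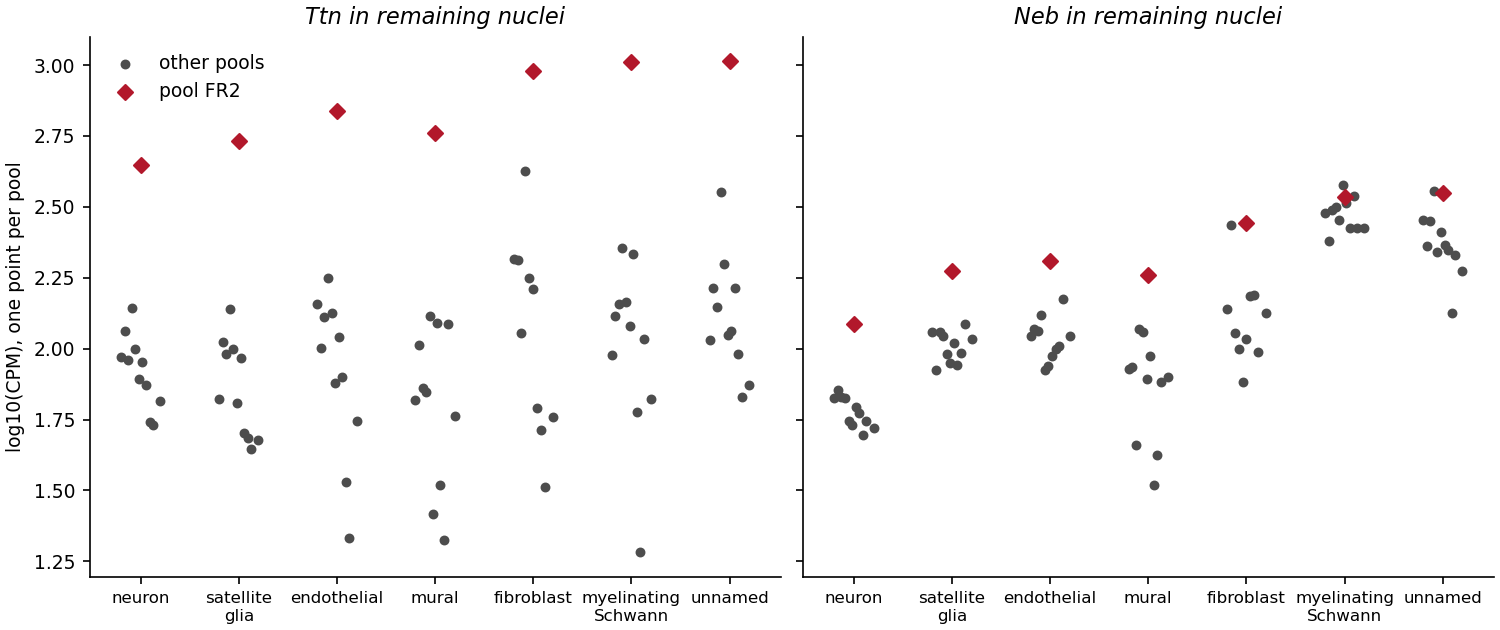
Ttn (left) and Neb (right) in remaining nuclei by class, as log10 CPM with 1 point per pool, FR2 as a red diamond. For Ttn, FR2 is the highest pool in every class; for Neb, the points of myelinating Schwann-like nuclei lie together between 240.5 and 377 CPM, and FR2 is among them.

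Myh3, the embryonic myosin, had most of its UMIs outside muscle nuclei. Of its 99 UMIs, 93 lay in remaining nuclei and 3 in muscle-like ones, and no nucleus held more than 3. As levels these were 0.686 CPM in the remaining nuclei and 3.03 CPM (95% exact interval 0.625 to 8.86) in the muscle-like ones. A neuron-like cluster led by Calca, Tac1, Adamts16 and Gfra3 held 64 of the 93 UMIs in 1490 of the remaining nuclei. Calca and Tac1 encode sensory neuropeptides. Its level there was 10.5 CPM, against 0.129 CPM in all other neuron-like nuclei (13 UMIs). It was detected in 53 of 1490 nuclei (3.56%, 95% exact binomial interval 2.68 to 4.63) against 13 of 24828 (0.0524%, 0.0279 to 0.0895), at median depths of 2978.5 and 3014 UMIs. Thinned to 1000 UMIs the shares were 0.491% and 0.0168%, from 7 and 4 nuclei.

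By pool, Myh3 in this cluster had 24 UMIs in ML1, 6 in ML2, 1 in MR1, 4 in MR2, 4 in MR3, 8 in FL2, 7 in FL3, 2 in FR1 and 8 in FR3, and 0 in ML3, FL1 and FR2. It was above the other neuron-like nuclei in 9 of 12 pools, and the 3 pools without a UMI were those with the fewest nuclei of the cluster, 19, 27 and 32. All 8 sublibraries contributed, with 2 to 13 UMIs each. Ttn was at 148 CPM in this cluster against 111 in other neuron-like nuclei and Myh4 at 18.6 against 26.6, so that Myh4 did not share the pattern. Clusters were chosen after their values were seen, and no test is given.

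**Figure D5:**
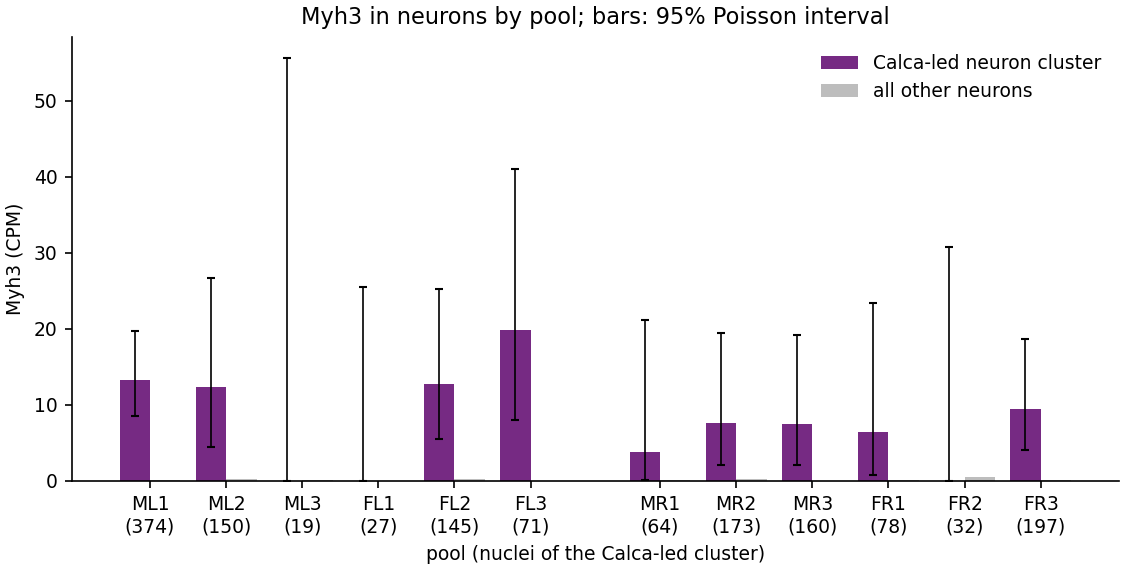
Myh3 in CPM with 95% exact Poisson intervals, in the Calca-led neuron-like cluster (purple) and in all other neuron-like nuclei (grey) of each pool, with the cluster's number of nuclei in brackets. The cluster is higher in 9 of 12 pools, and ML3, FL1 and FR2 have no Myh3 UMI in it.

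Across the 12 pools, the genes most like the summed members in log2(CPM + 1) of all nuclei included 8 from the fast-fibre and shared sarcomere lists, the exceptions being Cmya5 and AABR07005775.1. Among 13646 genes with at least 200 UMIs, Tnnt3 led (Pearson r = 0.997, and 0.994 without FR2), followed by Mybpc2 (0.990 and 0.990), Mylpf (0.988 and 0.973), Cmya5 (0.987 and 0.974), Trdn (0.9865 and 0.969), AABR07005775.1 (0.985 and 0.9765), Xirp2 (0.984 and 0.968), Pygm (0.984 and 0.970), Tpm2 (0.979 and 0.964) and Tnni2 (0.975 and 0.948). Of the members, Ttn, Neb, Ckm, Acta1 and Myh4 had r of 0.968 or more with the sum they are part of. Myh2 had 0.765, Myh7 0.611, Myh8 -0.0067 and Myh3 -0.339. The pools share sublibraries, and left and right pools share rats, so these values are a description of the pools.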

How the data were processed

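Nuclei were fixed and barcoded by the authors with Evercode version 2 kits in 8 sublibraries and sequenced, per the labels' protocols. The deposited values are raw counts of transcripts (UMIs) per nucleus and gene, and their sums equalled the deposited transcript counts in 36741 of 36741 nuclei. The submitters' processing notes name mRatBN7.2, R 4.3.2 and Seurat 4.1.3. The aligner, the barcode filter and the handling of shared reads were not given in the sources at hand.

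Pool, sex and side were read from the deposited pool names, in which female pools are numbered on from the male ones. The deposit's samples are the sublibraries, which served only as technical spread. All nuclei were kept, and no doublet caller was run. The members and the gene lists were chosen with earlier results of these data known. All members are described, along with the 3 members of each list with the highest counts in muscle-like nuclei and the 10 genes most like the members. Other genes named are said to be so, and 1 called gene is not reported here.

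Clusters came from scanpy 1.11.5 and leidenalg 0.10.2 (3000 variable genes asked for, members left out, 30 principal components, 20 neighbours, resolution 1). Nuclei outside the neuron-like clusters were clustered again on their own variable genes, and the muscle-like cluster comes from this second round. A cluster took a class name when at least 3 listed markers were 2-fold higher (1.5-fold for neurons) in at least 10% of nuclei. Neuron-like clusters were compared with the clusters outside them. Every other named cluster also needed a listed marker among its 10 leading genes. Names mean likeness. UMIs were summed per pool and tested with edgeR 4.0.16 under R 4.3.3 (quasi-likelihood F test, TMM, filterByExpr, side and sex as additive terms), adjusted by the Benjamini-Hochberg method with a threshold of 0.05 over all genes tested. The fit was first tested on simulated data. DESeq2 1.42.0 served as an alternative. Shares of nuclei past the limit were compared by exact permutation tests, within sex or side. For the Myh4 share, side labels were permuted over all its pools and not within sex. CPM are UMIs scaled to 1000000 UMIs of the same nuclei. Intervals are 95% exact and cover counting error only, and 0 UMIs are read as up to 3 counts. No value was corrected for gene length.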

Additional observations from a re-analysis of the deposited data

Results flagged for a closer look

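Groups of 6 pools were screened for a pool set apart from the others, with a gap to its nearest neighbour above Dixon's 95% critical value relative to the group's range. Of 18 groups tested, 8 held such a pool, FL1 for the share in left pools and FR2 for the others. The groups hold the same pools and genes that vary together. They are not independent, and their count is not compared with a chance rate.

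The share of nuclei past the limit of 10 UMIs of Ttn plus Neb was 2.86% in FL1, above the other left pools, and 14.7% in FR2, above the other right pools. FL1 is also a pool that went against its sex label. In the remaining nuclei FR2 stood above the other right pools in 6 members: Ttn at 530.5 CPM, Neb at 159, Myh4 at 136, Acta1 at 13.2, Ckm at 12.3 and Myh2 at 10.6 CPM. No cause of these values was tested.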

How the results depend on the processing

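Of 171 single-gene settings over 12 gene results, 150 kept their direction and side of the threshold, 14 reversed, 6 lost a call (all of them Myh2 by side in nuclei past the limit) and 1 gained one (Acta1 in muscle-like nuclei alone). Counts of called genes moved more. For side in all nuclei 6 genes became 37 with DESeq2, 15 without the low-count filter, 2 without ML1 and FL1 and 1 to 4 with 1 pool left out. For sex in all nuclei 0 became 75, 22, 26 and 0 to 45. For side in remaining nuclei 9 became 40, 21, 2 and 1 to 7, and for sex there 2 became 76, 45, 32 and 0 to 55. For side in nuclei past the limit 7 became 57 without the filter, 4 without ML1 and FL1, 18 in muscle-like nuclei alone (5 pools; both alternatives chosen after seeing the data) and 0 to 14 with 1 pool left out. The cause of these shifts was not tested.

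With the pool number as a replicate block, the counts for side were 2 in all nuclei and 4 in remaining nuclei. Same-numbered left and right pools did not deviate together (correlations from -0.287 to 0.284 over 6 pairs), so the numbers were not taken as pairing, and not every pool correlated best with its own number. No fit with the block was run for nuclei past the limit.

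With 1 pool left out, the difference in the share past the limit ran from 0.110 to 3.03 points for side and from -0.565 to 2.38 points for sex, and that in the Myh4 share from -12.45 to -2.18 points. With a limit of 20 UMIs the Myh4 share difference was -8.61 points. Log2 differences that changed sign with 1 pool left out, FR2 in all of those by side or sex in all or remaining nuclei, had these ranges: in all nuclei by side Ttn -0.33 to 1.55 and Myh4 -0.41 to 1.73, by sex Ttn -0.92 to 0.98, Myh2 -1.49 to 1.62 and Myh4 -0.89 to 1.28. In remaining nuclei by side they were -0.08 to 0.98 for Ttn and -0.02 to 1.18 for Myh4. In nuclei past the limit they were -0.50 to 0.67 for Ckm (0.06 without the low-count filter), -1.07 to 0.44 for Acta1 and -0.46 to 1.06 for Myh4. Depth limits Myh7, Myh3 and Myh8, whose totals were 75, 99 and 3 UMIs.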

Other observations

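In the 586 nuclei past the limit outside the muscle-like cluster, Myh4 was detected in 500 nuclei and Myh2 in 78. Of their Myh4, Myh2 and Myh7 UMIs 94.5% were Myh4, against 95.1% in muscle-like nuclei. In MR2, Myh2 made up 34.3% of these UMIs outside the muscle-like cluster and 17.4% within it, from 23 and 12 nuclei. The single muscle-like nucleus of FR3 held 10 Myh2 and 5 Myh4 UMIs. In neuron-like nuclei under the limit Myh2 per Myh4 UMI was 0.0555, beside 0.0485 in muscle-like nuclei. Neuron-like clusters also differed in Neb: the Itgae-led cluster stood at 81.7 CPM against 61.6 in other neuron-like nuclei, higher in 12 of 12 pools, and the Tafa4-led cluster at 43.4 against 67.3, higher in 0 of 12. Median depths of these clusters were 3765 and 3316 UMIs, and no test is given.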
